A study of Mus musculus with 4 samples.

Results

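The genes described here are 10 genes of the smooth muscle contractile apparatus, measured in PDGFRα reporter+ and PDGFRα reporter- periosteal cells of the mouse. The members are *Actg2*, *Acta2*, *Tagln*, *Cnn1*, *Myh11*, *Myl9*, *Lmod1*, *Tpm2*, *Smtn* and *Des*, found by symbol among the 45802 gene symbols of the expression table, of which 14415 had a value in all 4 libraries, all 10 members included. They were chosen as a group because most of them lay lower in reporter+ than in reporter- cells, so their difference between the populations is given as a description, without a test. Male *Pdgfra*-CreER mice carrying the mT/mG reporter, 9 to 10 weeks old, were given 150 mg/kg tamoxifen daily over 5 days, and periosteal cells were released with collagenase from femurs and tibias 14 days later. The cells of 3 to 6 mice per population were pooled according to the sample labels (the study's methods give a higher range), grown for 1 passage with 10 ng/mL bFGF, and sorted as negative for CD31, CD45 and Ter119. Reporter+ cells carried membrane GFP, reporter- cells carried membrane tdTomato, and RNA sequencing was done on 2 libraries per population. All mice had the same alleles and treatment, and the populations were separated by the reporter color alone.

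Smooth muscle cells contract when thick filaments of smooth muscle myosin pull on actin filaments that are decorated with tropomyosin, calponin and transgelin, and desmin filaments carry the force through the cell. Many of these genes are switched on together by serum response factor (SRF), which binds CArG boxes in their promoters with myocardin or the myocardin-related factors. *Acta2*, *Tagln* and *Cnn1* are also turned on in fibroblasts that become myofibroblasts in culture, whereas *Myh11* is held to be a stricter marker of the smooth muscle lineage. Pericytes and vascular smooth muscle cells are found along the vessels of the periosteum.

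Expression was given as quantile-normalized log2 values, with the same lowest value (−10.07), median (1.48) and highest value (11.73) in each library. The unit under the logarithm is not stated, so neither the depth of a library nor its counting error is known. Libraries are named here by population and by the number in the column heading, 2 or 3, whereas the sample labels number replicates 1 and 2. What the number stands for is not stated. Across genes, libraries with the same number had a Pearson correlation of 0.984 (number 2) and 0.982 (number 3), against 0.952 between the reporter+ libraries and 0.957 between the reporter- libraries. A value was present for 15423 to 15605 genes per library. *Pdgfra*, whose promoter drives the CreER, was at 7.78 and 7.62 in reporter+ cells and at 7.87 and 7.44 in reporter- cells, so the populations overlapped in *Pdgfra* RNA. The Cre records promoter activity at the time of tamoxifen and not at the time of sorting. The labelled cell type was checked with 16 fibroblast and periosteal markers, all of which had a value in every library and a mean of at least 0.

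The actin of the visceral smooth muscle thin filament is encoded by *Actg2* (GRCm38, chr6:83512905-83536265, minus strand). Its log2 value was −1.41 in reporter+ library 2 and −0.31 in reporter+ library 3, against 1.32 in reporter- library 2 and 1.15 in reporter- library 3. Both reporter+ libraries lay below both reporter- libraries. The mean difference, reporter+ minus reporter-, was −2.10 with a standard error of 0.46 in the limma model, or 4.28-fold higher in reporter- cells. It was −2.73 between the libraries numbered 2 and −1.46 between those numbered 3. With a pseudocount of 1 added on the linear scale, which shrinks the differences of low genes, it was −1.09. In these bulk libraries, fewer cells that express a gene and less RNA of it per cell cannot be told apart.

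*Acta2* (chr19:34241090-34255590, minus strand) encodes α-smooth muscle actin, the actin of vascular smooth muscle and the usual marker of myofibroblasts. Its values were 1.30 and 3.66 in reporter+ libraries 2 and 3, and 3.18 and 4.32 in reporter- libraries 2 and 3. The populations overlapped, since reporter+ library 3 lay above reporter- library 2. The difference was −1.27 with a standard error of 0.89, with −1.89 within number 2 and −0.66 within number 3, and it was −0.09 without reporter+ library 2 and −2.45 without reporter+ library 3. Leaving out a library unbalances the numbers between the populations, so the difference between the numbers enters such values here and below.

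These actins are closely related, which bears on how reads are told apart. The first 60 coding bases of *Actg2* and *Acta2*, read from the GENCODE M21 transcripts of GRCm38, are shown because this stretch holds both shared runs and differences. Capitals mark the bases that differ in the alignment, with an insertion of bases in *Acta2*.
Actg2: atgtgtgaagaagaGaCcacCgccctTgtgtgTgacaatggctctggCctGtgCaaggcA
Acta2: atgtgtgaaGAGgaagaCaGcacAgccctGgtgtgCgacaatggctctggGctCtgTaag
Over the whole coding sequence, taken as the longest open reading frame, *Actg2* (1131 bases) and *Acta2* (1134 bases) had 955 of 1131 aligned bases in common (84.4%), and the longest identical run was 29 bases. *Acta2* shared runs of up to 47 bases with *Actb* and up to 56 with *Actg1*, the cytoplasmic actins. How reads that fit more than 1 actin were assigned is not stated in the sources used here, so the levels of the actins carry that uncertainty.

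*Tagln* (chr9:45929619-45936058, minus strand), which encodes the actin-binding protein transgelin or SM22α, resembled *Acta2* in its order of libraries. Its values were 1.61 and 3.52 in reporter+ libraries 2 and 3, and 3.49 and 3.99 in reporter- libraries 2 and 3. Only reporter+ library 2 stood well below the others, and the populations overlapped by a small margin. The difference was −1.17 with a standard error of 0.67, with −1.88 within number 2 and −0.47 within number 3, and it was −0.22 without reporter+ library 2. The gene overlaps *Pcsk7* on the opposite strand. The libraries were prepared as stranded, but whether counting used the strand is not stated.

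*Cnn1* (chr9:22099216-22109630, plus strand) encodes calponin 1, which binds actin and restrains the myosin ATPase. Its values were −1.66 and −0.57 in reporter+ libraries 2 and 3, and −0.69 and −0.03 in reporter- libraries 2 and 3, again with an overlap. The difference was −0.76 with a standard error of 0.54, with −0.97 within number 2 and −0.54 within number 3, and it was −0.21 without reporter+ library 2 and −0.27 with a pseudocount of 1.

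*Tpm2* (chr4:43514711-43523765, minus strand), which encodes β-tropomyosin along the actin filament, differed little between the populations. Its values were 4.33 and 3.72 in reporter+ libraries 2 and 3, and 4.53 and 4.21 in reporter- libraries 2 and 3. The difference was −0.34 with a standard error of 0.26, with −0.20 within number 2 and −0.49 within number 3. It was −0.65 without reporter+ library 2, −0.04 without reporter+ library 3 and −0.19 without reporter- library 2. Its size thus depended on which libraries were kept, and the difference between the numbers enters these values.

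*Lmod1* (chr1:135324807-135368065, plus strand) encodes leiomodin 1, which nucleates actin filaments in smooth muscle. Its values were −2.37 and −2.39 in reporter+ libraries 2 and 3, and −0.76 and −1.27 in reporter- libraries 2 and 3. The populations did not overlap, and the reporter+ libraries were close to equal. The difference was −1.36 with a standard error of 0.43, or 2.57-fold higher in reporter- cells, and stayed between −1.61 and −1.11 when any library was left out. It shrank to −0.33 with a pseudocount of 1.

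On the thick filament, *Myh11* (chr16:14194535-14291372, minus strand), the heavy chain of smooth muscle myosin, showed the largest mean difference of the 10 members over all libraries on the deposited scale. Its values were −2.87 and −3.29 in reporter+ libraries 2 and 3, and −0.80 and −0.57 in reporter- libraries 2 and 3. The populations were well apart, and the level in reporter+ cells was low on the scale of the table, whose median is 1.48. The difference was −2.39 with a standard error of 0.44, or 5.26-fold higher in reporter- cells, with −2.07 within number 2 and −2.72 within number 3. Leaving out any library kept it between −2.60 and −2.19. Within number 2, *Actg2* differed more (−2.73), as did *Actg2* (−2.65) and *Acta2* (−2.45) without reporter+ library 3. With a pseudocount of 1 the difference of *Myh11* was −0.54, smaller than the values of *Actg2* (−1.09), *Acta2* (−1.08), *Tagln* (−1.01) and *Myl9* (−0.73) on that scale. Its size thus depends on the low end of the scale, and its rank on that and on single libraries.

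*Myl9* (chr2:156775420-156781658, plus strand) encodes the regulatory light chain that is phosphorylated to start contraction. Its values were 1.67 and 3.41 in reporter+ libraries 2 and 3, and 3.05 and 3.74 in reporter- libraries 2 and 3. As for *Acta2*, reporter+ library 3 lay between the reporter- libraries. The difference was −0.86 with a standard error of 0.64, with −1.38 within number 2 and −0.33 within number 3. Without reporter+ library 2 it was 0.01, close to no difference. That value sets reporter+ library 3 against both reporter- libraries, so the difference between the numbers enters it.

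*Des* (chr1:75360329-75368579, plus strand) encodes desmin, the muscle intermediate filament, which skeletal and cardiac muscle also express. Its values were −2.73 and −3.89 in reporter+ libraries 2 and 3, and −1.13 and −1.49 in reporter- libraries 2 and 3. No reporter+ library reached a reporter- library. The difference was −2.00 with a standard error of 0.60, or 4.00-fold higher in reporter- cells, with −1.60 within number 2 and −2.40 within number 3. A pseudocount of 1 reduced it to −0.34.

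*Smtn* (chr11:3517523-3540612, minus strand), which encodes smoothelin, a cytoskeletal protein of contractile smooth muscle, was the member that did not lie lower in reporter+ cells. Its values were 4.10 and 2.54 in reporter+ libraries 2 and 3, and 3.80 and 2.49 in reporter- libraries 2 and 3. The libraries fell apart by number and not by population. The difference was 0.17 with a standard error of 0.69, and it ranged from −0.61 without reporter+ library 2 to 0.95 without reporter+ library 3. Both ends of that range take in the difference between the numbers. *Smtn*, *Lmod1* and *Des* each overlap a predicted gene on the opposite strand.

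**Figure D1:**
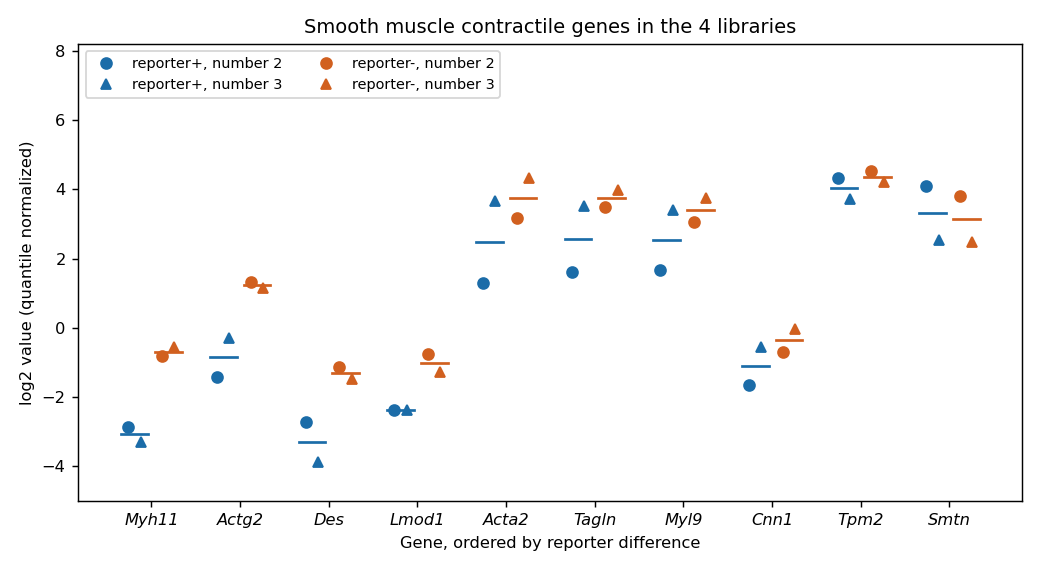
Quantile-normalized log2 value of each of the 10 genes (horizontal axis, ordered by the reporter difference) in reporter+ (blue) and reporter- (orange) libraries, with circles for number 2, triangles for number 3 and lines at the mean of 2 libraries. *Myh11*, *Actg2*, *Des* and *Lmod1* show no overlap of the populations, and in *Smtn* the circles lie above the triangles in both populations.

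As the plot of the 10 genes by library shows, the members fell into patterns that were noticed after their values were seen. In *Actg2*, *Myh11*, *Lmod1* and *Des* both reporter+ libraries lay below both reporter- libraries, 4 of 10 members beside 8.1% of all 14415 genes. In *Acta2*, *Tagln*, *Cnn1* and *Myl9* the order from low to high was reporter+ 2, reporter- 2, reporter+ 3, reporter- 3, also 4 of 10, beside 9.23% of all genes. *Tpm2* and *Smtn* had both libraries numbered 3 below both numbered 2, as did 28.8% of all genes. A difference of −1 or lower was seen in 6 of 10 members, beside 1.87% of all genes. With a pseudocount of 1, only *Actg2* (−1.09), *Acta2* (−1.08) and *Tagln* (−1.01) among the members reached it. Because the members were chosen on this contrast, nothing is read from these counts.

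Over the 10 members the median difference between the populations was −1.22, beside −0.00 over all genes. It was −1.60 within number 2 and −0.60 within number 3. Within each number taken alone, 9 members were lower in the reporter+ library and *Smtn* was higher, whereas over all genes 3571 of 14415 were lower and 3182 higher in both numbers. Leaving out reporter+ library 2 gave a median of −0.63, leaving out reporter+ library 3 gave −1.57, and a pseudocount of 1 gave −0.44. The medians with a library left out take in the difference between the numbers. In limma without a block, 0 of 14415 genes (0%) passed an adjusted p of 0.05 between the populations, and 131 had an unadjusted p under 0.05. The spread of the members from their common pattern was also uneven. Measured as the Euclidean distance over the 4 libraries from the median of the members' profiles, each centred on its own mean, it ran from 0.698 for *Lmod1* and 0.774 for *Cnn1* to 2.40 for *Smtn*.

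The members were chosen on the contrast between the populations, with earlier results of these data known. The difference between libraries numbered 3 and 2 was tested in limma with population as a term and Benjamini-Hochberg adjustment over 14415 genes. It called 5 of the 10 members, beside 21.3% of all genes. Each number holds a single library of each population, so the populations stand in as replicates of the number. The p-values measure only how unevenly the numbers differ in the populations of these 4 libraries, moderated by a variance trend over all genes. They do not measure the spread between replicate libraries of a number, and the difference may be technical.

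Higher in number 3 were 3 members, beside 11.5% of all genes. *Acta2* was 1.75 higher on the log2 scale (standard error 0.24, limma adjusted p = 0.00135), or 3.36-fold, with 2.36 within reporter+ and 1.13 within reporter- cells. *Tagln* was 1.20 higher (standard error 0.27, limma adjusted p = 0.0138), with 1.91 within reporter+ and 0.49 within reporter- cells. *Myl9* was 1.21 higher (standard error 0.22, limma adjusted p = 0.00493), with 1.73 within reporter+ and 0.69 within reporter- cells. In all 3 genes both libraries numbered 3 exceeded both libraries numbered 2, which with *Cnn1* makes 4 of 10 members, close to the 36.4% of all genes. *Cnn1* had the same order, with a difference of 0.88 that missed the threshold (standard error 0.29, limma adjusted p = 0.0631).

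Lower in number 3 were 2 members, beside 9.79% of all genes. *Smtn* was lower, at −1.43 (standard error 0.13, limma adjusted p = 1.58e-04), or 2.70-fold, with −1.56 within reporter+ and −1.31 within reporter- cells. *Tpm2* was lower, at −0.46 (standard error 0.12, limma adjusted p = 0.0300). Among the genes whose populations did not overlap, none passed this test, beside 21.3% of all genes. They were grouped after their values were seen, and the lack of overlap itself limits how far the numbers can differ. Nothing is therefore read from the absence of calls among them. *Actg2* differed by 0.47 (limma adjusted p = 0.330), *Myh11* by −0.09 (limma adjusted p = 0.892), *Lmod1* by −0.26 (limma adjusted p = 0.651) and *Des* by −0.76 (limma adjusted p = 0.235). The median over the members was 0.19, beside 0.05 over all genes. These calls rest on the variance trend of the model: without it limma called 0 of 14415 genes, 0 members included, although 3909 genes had an unadjusted p under 0.05. *Acta2*, *Tagln*, *Myl9* and *Tpm2* also lost their calls without the population term and with blanks filled by the lowest value, and *Tagln*, *Myl9* and *Tpm2* lost theirs with a pseudocount of 1, whereas *Smtn* kept its call in those 3 settings.

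**Figure D2:**
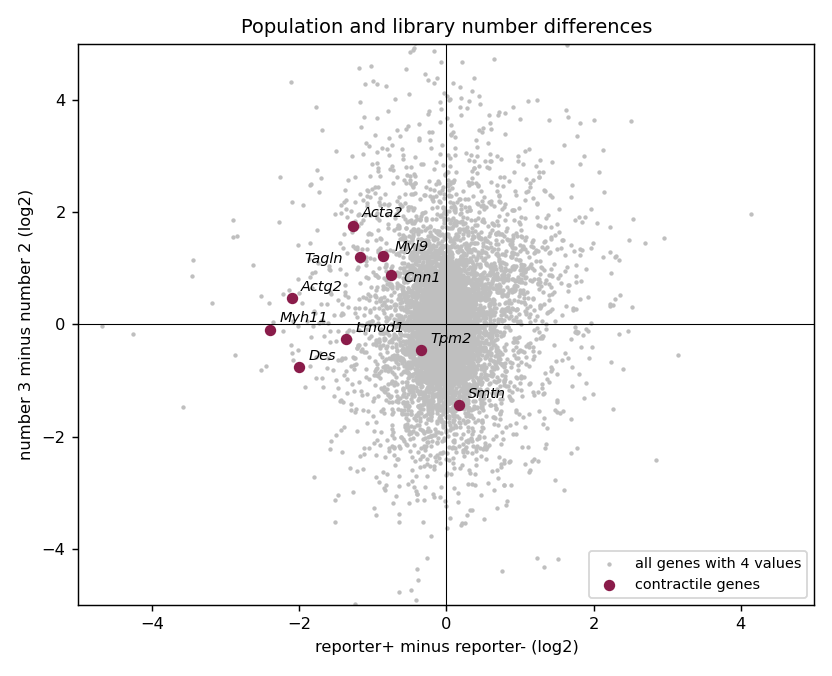
Difference between populations (horizontal axis, reporter+ minus reporter-, log2) against difference between library numbers (vertical axis, 3 minus 2, log2) for all 14415 genes with 4 values (grey) and the 10 contractile genes (dark red), with 17 genes outside the axes. *Myh11*, *Actg2*, *Des* and *Lmod1* lie far to the left, whereas *Acta2*, *Tagln*, *Myl9* and *Cnn1* lie to the left and above 0, and *Smtn* lies below.

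The plot of population against library number sets both quantities side by side. *Acta2* was at −1.27 between the populations and 1.75 between the numbers, and *Tagln* at −1.17 and 1.20. *Smtn* was at 0.17 and −1.43, and *Myh11*, at the other end, at −2.39 and −0.09. Whether the sizes of these differences are unequal was not tested.

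Promoter sequence was examined because SRF binds CArG boxes and the TEAD factors bind MCAT elements in smooth muscle genes. RefSeq promoter windows of GRCm38.p6 were used for 7 of the 10 members. *Actg2*, *Tagln* and *Myh11* had no entry. The start meant here is that of RefSeq, which can lie inside the GENCODE gene whose position is given above. In the 250 bases before that start, on both strands, a CArG box was found in *Myl9*, beside 1.47% of 32851 windows. Smooth muscle promoters also hold CArG-like stretches with a G or C at a single base of the A/T centre, a form searched for after the strict box. It was found in *Acta2* and *Myl9*, beside 7.24% of windows. The 4 stretches are shown with their flanks because *Acta2* and *Myl9* are among the genes that varied by number, with the CArG or CArG-like stretch in capitals, written 5′ to 3′ on the strand of the gene.
Acta2 (chr19:34255423-34255482, minus strand, 75 to 84 bases before the start): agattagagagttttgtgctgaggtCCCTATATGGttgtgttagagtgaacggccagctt
Acta2 (chr19:34255374-34255432, minus strand, 25 to 34 bases before the start): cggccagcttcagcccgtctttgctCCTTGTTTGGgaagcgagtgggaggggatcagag
Myl9 (chr2:156775278-156775337, plus strand, 152 to 161 bases before the start): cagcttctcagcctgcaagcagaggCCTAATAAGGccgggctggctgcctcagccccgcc
Myl9 (chr2:156775340-156775399, plus strand, 90 to 99 bases before the start): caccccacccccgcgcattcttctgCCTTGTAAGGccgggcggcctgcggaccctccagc
The third line is the strict CArG box of *Myl9*, and the others are CArG-like. Both *Acta2* stretches, and the whole window of *Smtn*, lie inside the GENCODE genes and not before them. The MCAT element, searched as CATTCC on both strands, was found in *Acta2*, *Lmod1* and *Smtn*, beside 12.6% of windows. *Cnn1*, *Tpm2* and *Des* had none of these letters in their windows. A match is a description of the letters and does not show binding.

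SRF, its cofactors and the signals and factors known to regulate smooth muscle genes were then examined as a list of 30 genes, 27 of which had a value in all libraries. *Srf* itself was at 1.73 and 1.65 in reporter+ libraries 2 and 3, and at 1.84 and 1.81 in reporter- libraries 2 and 3, a difference of −0.14. *Myocd*, which encodes myocardin, the SRF partner of smooth and cardiac muscle, was blank in both reporter+ libraries and at −6.14 and −5.16 in reporter- libraries 2 and 3, near the bottom of the scale. The myocardin-related factors, listed in the table under the symbols *Mkl1* and *Mkl2*, differed by −0.05 and −0.24. The median of the list was −0.10, with 14 genes lower and 2 higher in reporter+ cells within each number, beside 24.8% and 22.1% of all genes.

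Named from this list by size were *Csrp2*, *Fhl2*, *Klf4* and *Notch3*. *Csrp2*, a LIM protein of smooth muscle, was 0.63 higher in reporter+ cells, with 5.06 and 4.60 against 4.34 and 4.05, and its populations did not overlap. *Fhl2*, a LIM cofactor of SRF, differed by −0.52 and *Notch3*, a receptor of mural cells, by −0.36. *Klf4*, a repressor of smooth muscle genes, differed by −0.45. None of the list passed limma between the populations. Between the library numbers, 6 of 27 passed, close to the 21.3% of all genes, so the count is no result about the list. The 4 higher in number 3 included *Fhl2* (0.65, limma adjusted p = 0.00848) and *Tgfbr1*, a TGF-β receptor (1.40, limma adjusted p = 0.00227). *Tgfb1* was among the 2 lower genes (−0.88, limma adjusted p = 0.00522).

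Other genes of the contractile apparatus and its regulation, 40 listed and 36 with all values, had a median of −0.21 between the populations, beside −1.22 for the members. Among them, 18 were lower and 4 higher in reporter+ cells within each number, beside 24.8% and 22.1% of all genes, and 0 passed limma. By size, *Jph2*, which ties the sarcoplasmic reticulum to the plasma membrane, differed by −0.74, *Aoc3*, an amine oxidase of smooth muscle, by −0.70 and *Filip1l* by −0.53. *Pde5a*, the cGMP phosphodiesterase of smooth muscle, went the other way with 0.48. Myosin light chain kinase (*Mylk*), which phosphorylates the product of *Myl9*, differed by 0.35, and the thin filament genes *Tpm1* and *Cald1* differed by −0.06 and −0.44. *Tpm1* was at −0.19 within number 2 and 0.07 within number 3, and *Cald1* at −0.87 and −0.01.

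Between the library numbers, 13 of these 36 genes passed limma, beside 21.3% of all genes. Of these, 8 were higher and 5 lower in number 3, beside 11.5% and 9.79% of all genes. Among the higher were *Aoc3* (4.01, limma adjusted p = 1.46e-05), *Tpm1* (1.13, limma adjusted p = 4.14e-04), *Cald1*, which encodes caldesmon (0.89, limma adjusted p = 0.00974), and *Vcl*, which encodes vinculin (0.65, limma adjusted p = 0.00434). *Jph2* (−1.38, limma adjusted p = 8.55e-04) and *Cav1*, the caveolar coat protein (−1.94, limma adjusted p = 1.74e-04), were among the lower. The list thus held genes of both directions, as the members did.

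Broadly expressed relatives of the members served as a comparison within each protein family. Of 15 relatives, 14 had all values, and their median difference between the populations was −0.17. *Actb*, a cytoplasmic actin, was at 9.19 and 9.87 in reporter+ and at 9.47 and 10.03 in reporter- libraries 2 and 3, a difference of −0.22 beside −2.10 for *Actg2*. *Actg1* differed by −0.27. The nonmuscle myosin heavy chains *Myh9* and *Myh10* differed by −0.38 and −0.18, beside −2.39 for *Myh11*. *Tagln2* differed by 0.19, beside −1.17 for *Tagln*. In the calponins, *Cnn2* differed by −0.16 and *Cnn3* by 0.03. *Myl12a* and *Myl12b*, the nonmuscle regulatory light chains, differed by −0.24 and −0.13. Among the filament regulators, the values were −0.08 for *Tpm3*, 0.01 for *Tpm4* and 0.03 for *Tmod3*. *Smtnl2*, the relative of *Smtn*, differed by −0.17, and *Vim*, the intermediate filament gene of mesenchymal cells, by −0.25 beside −2.00 for *Des*. *Lmod2* had a value in reporter- library 3 only. With a pseudocount of 1, *Actg2* was at −1.09, *Tagln* at −1.01, *Myh11* at −0.54 and *Des* at −0.34 between the populations. The gaps shown for *Actg2*, *Myh11* and *Des* thus depend on the low end of the scale. Since the members were chosen for this difference, the gap between them and their relatives is a description. *Vim* and *Cnn2* were lower in number 3, by −2.01 (limma adjusted p = 3.83e-04) and −0.57 (limma adjusted p = 0.00943).

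**Figure D3:**
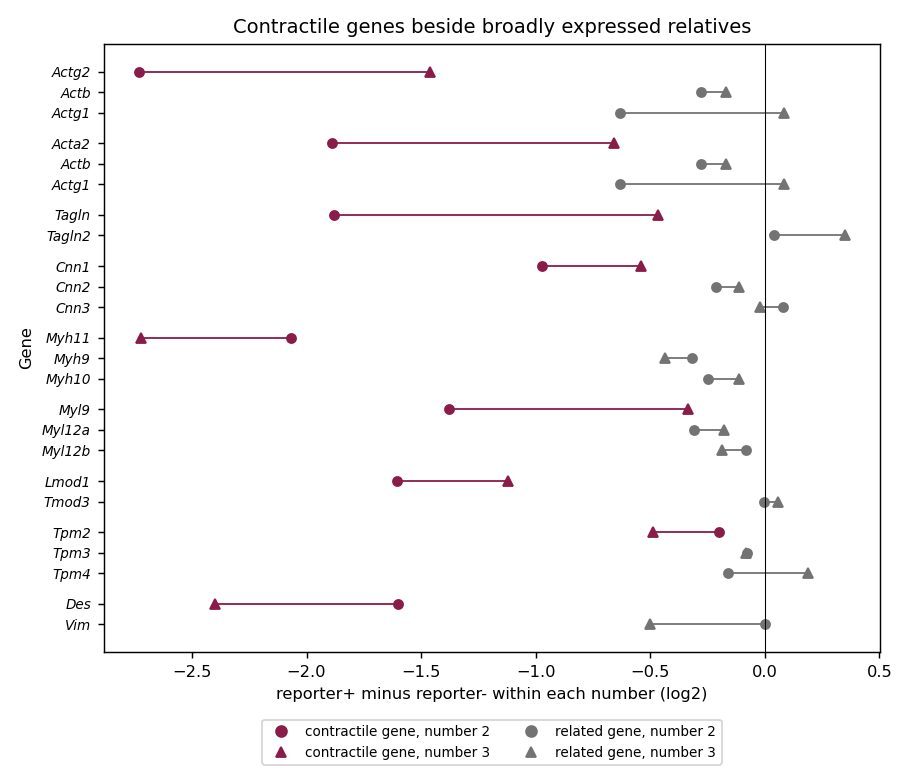
Difference between populations within number 2 (circles) and within number 3 (triangles), reporter+ minus reporter- on the log2 scale, for 9 contractile genes (dark red) and their broadly expressed relatives (grey, each shown under its relative, so *Actb* and *Actg1* appear under both actins). The 9 contractile genes lie to the left of 0 in both numbers, and *Tpm2* lies within the range of the relatives. *Smtn*, the member that lay higher in reporter+ cells, is not shown (0.30 within number 2 and 0.05 within number 3).

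The plot of contractile genes beside their relatives shows that the distance between circle and triangle was wide in *Actg2*, *Acta2*, *Tagln* and *Myl9*, where the difference was smaller in number 3, and that in *Myh11*, *Des* and *Tpm2* the difference was larger in number 3.

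The striated muscle, endothelial and macrophage marker lists also had medians away from 0 between the populations, and their part in the result was not tested. Of 30 striated muscle genes, 16 had all values and 4 were blank in every library (*Myh2*, *Myh6*, *Myf5* and *Pax7*). Within each number, 12 were lower and 1 was higher in reporter+ cells, beside 24.8% and 22.1% of all genes, and the median of the list was −1.54. Their summed linear level, which is in the unstated linear unit and weights genes by that unit, was 4.64 and 3.34 in reporter+ libraries 2 and 3, and 8.58 and 5.30 in reporter- libraries 2 and 3, with 12.9% to 37.2% of it from *Tnnc1*. *Acta1*, the skeletal muscle actin, was at −3.05 and −2.10 against 0.37 and −1.50. Only 1 of the 30 had a mean of at least 0, and 0 of 16 passed limma in either contrast, beside 21.3% of all genes between the library numbers. The members that striated muscle also expresses, *Des* first, cannot be assigned to either muscle type here.

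Of 14 pericyte and mural markers, 13 had all values and *Higd1b* was blank. Their median difference was 0.08, with −0.07 within number 2 and 0.35 within number 3. In reporter+ cells, 5 were lower and 6 higher within each number, beside 24.8% and 22.1% of all genes. The list thus did not share a direction with the members. *Ndufa4l2* differed by 1.20 and *Abcc9*, a channel subunit of pericytes, by 0.45, whereas *Cspg4*, which encodes NG2, differed by −0.74 and *Ebf2* by −0.78. The summed level was 115 and 69.0 in reporter+ libraries 2 and 3, and 102 and 59.2 in reporter- libraries 2 and 3, with 9.07% to 56.5% of it from *Ndufa4l2*. Between the library numbers, 6 of 13 passed limma, 3 in each direction, beside 21.3% of all genes.

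Fibroblast markers showed a median of −0.01 between the populations, with sums of 3586 and 3854 in reporter+ and 3469 and 3759 in reporter- libraries 2 and 3, of which *Col3a1* made up at most 45.7%. Within that list, the matrix proteoglycans *Lum* and *Dcn* differed by 1.83 and 1.39 and *Fap* by 1.06, whereas *Postn*, which encodes periostin, differed by −1.14 and was 3.03 higher in number 3 (limma adjusted p = 2.74e-05). Between the numbers, 9 of 16 fibroblast markers passed, 4 higher and 5 lower in number 3, beside 21.3% of all genes.

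Endothelial markers, 8 of 10 with all values, had a median of −1.30, and *Pecam1* and *Cdh5* differed by −3.19 and −4.26, although the sort had removed CD31+ cells. The list was not uniform, since *Vwf* differed by 0.09 and *Egfl7* by −0.04. The summed level was 3.97 and 3.42 in reporter+ and 5.19 and 6.57 in reporter- libraries 2 and 3, with 37.2% to 58.7% of it from *Egfl7*. Macrophage markers, 9 of 10 with all values, went the opposite way with a median of 0.99, although CD45+ cells had been removed. They summed to 230 and 274 in reporter+ and 92.1 and 175 in reporter- libraries 2 and 3, with 83.6% to 87.3% of the sum from *Lyz2* alone, and *Adgre1*, *Mrc1*, *Tyrobp* and *Lyz2* differed by 1.13, 1.02, 1.00 and 1.00. In limma without a block, none of the marker lists held a gene that passed between the populations. With the library number as a block, *Lum*, *Fap* and *Tyrobp* passed, but not when the variance trend was also left out. Between the library numbers, 6 of 9 macrophage markers passed limma, all 6 higher in number 3, beside 11.5% of all genes.

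**Figure D4:**
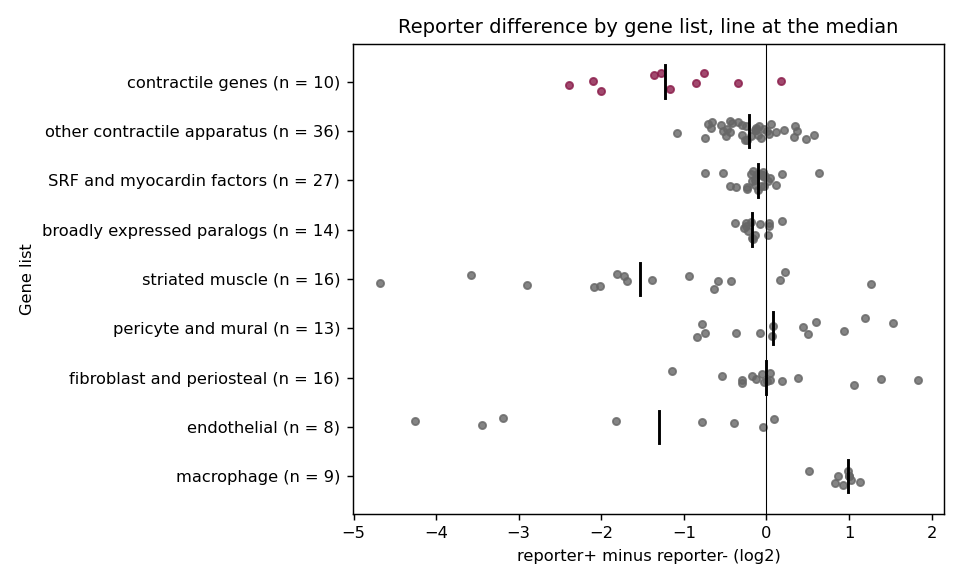
Difference between populations (horizontal axis, reporter+ minus reporter-, log2) of each gene with 4 values in the 10 contractile genes (dark red) and 8 other lists (grey), with a black line at the median of the list. The medians of the contractile, striated muscle and endothelial lists lie below −1, the macrophage median lies at 0.99, and the other medians lie between −0.21 and 0.08.

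The plot of the lists shows that 3 lists had medians below −1. A mean of at least 0 was seen in 6 of 10 contractile genes, 1 of 30 striated muscle genes and 1 of 10 endothelial genes. Of the 4 contractile genes whose populations did not overlap, *Myh11*, *Lmod1* and *Des* had means of −1.88, −1.70 and −2.31, and *Actg2* had a mean of 0.19.

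Among 10125 genes outside the lists with a mean of at least 0, the 5 whose profile over the 4 libraries lay nearest to the median profile of the members were *Fam198b* (Euclidean distance 0.510), *Slco2a1*, a prostaglandin transporter gene (0.548), *Prkg2*, a cGMP-dependent kinase gene (0.564), *Thbs1*, the thrombospondin 1 gene (0.580), and *Ccl11*, the eotaxin gene (0.587). The median profile, as a deviation from each gene's own mean, was −0.96 and −0.49 in reporter+ libraries 2 and 3, and 0.45 and 0.80 in reporter- libraries 2 and 3. *Thbs1*, for example, was at 6.66 and 6.80 in reporter+ and at 8.19 and 7.80 in reporter- libraries 2 and 3. Likeness over 4 libraries is a description of these values only.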

How the data were processed

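The authors deposited 1 table of log2 values, quantile normalized, by gene symbol, in which some cells are empty. The submitters' processing notes name bcl2fastq 2.17.1.14, Partek 7.0 and GRCm38.p6. The aligner, counting, annotation, filters and linear unit are not given in the sources used here, so the depth is unknown. Values were used as deposited, without filling blanks, for the 14415 genes present in all 4 libraries. Columns were assigned to populations by heading, 2 libraries each. The reporter difference is the mean of the reporter+ minus the mean of the reporter- libraries. Tests were run in limma 3.58.1 under R 4.3.3 (lmFit and eBayes with a variance trend, two-sided, Benjamini-Hochberg adjustment, threshold 0.05): between populations without a block, and between library numbers with population as a term. The code was tested on simulated data. For 1 gene, an exact two-sided permutation test of 2 against 2 libraries cannot go below p = 0.333, so none was used. Summed levels add 2 to the power of the log2 value over the genes of a list with a value.

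The members and lists were chosen with earlier results of these data known. Genes named are the members, their broadly expressed relatives, *Pdgfra*, up to 4 genes per other list with the largest absolute reporter difference (mean of at least 0, same sign in both numbers), and the 5 genes nearest to the members' median profile. The other genes named, such as *Srf*, *Myocd*, *Mylk*, *Tpm1*, *Cald1*, *Vcl*, *Cav1*, *Acta1*, *Tnnt1*, *Pecam1*, *Cdh5*, *Vwf*, *Egfl7*, *Tgfb1* and *Tgfbr1*, were picked from the lists after their values were seen. Positions and coding sequences came from GENCODE M21 and promoters from RefSeq, by symbol. GENCODE M21 held 16014 of the 16742 symbols with a value in any library, and 4 list genes were found by synonym. Motifs were searched with Python 3.11.15. Alternatives were a block for the library number, a pseudocount of 1, a minimum mean of 0, median centring, no variance trend, filled blanks, no population term, and leaving out each library.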

Additional observations from a re-analysis of the deposited data

Results flagged for a closer look

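*Actg2* and *Myh11* were marked because the difference between library numbers ran in opposite directions in the populations. For *Actg2*, number 3 minus number 2 was 1.10 within reporter+ and −0.17 within reporter- cells. For *Myh11* it was −0.42 within reporter+ and 0.24 within reporter- cells. Each value compares 1 library with 1 library, and the difference between the populations was not tested. Groups of 2 libraries are too small for a test of single outlying libraries.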

How the results depend on the processing

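Between the populations, limma called 0 of 14415 genes without a block and 29 with the library number as a replicate block (22 higher and 7 lower in reporter+ cells), *Actg2* among the members, 0 other contractile genes, and *Lum* (adjusted p = 0.0121), *Fap* (adjusted p = 0.0288) and *Tyrobp* (adjusted p = 0.0437) among the marker lists. *Actg2* was chosen on this contrast, so its call is no test. The standard errors of the members' reporter differences were 0.263 to 0.887 without the block and 0.125 to 0.419 with it. With the replicate block but without the variance trend, an alternative chosen after seeing the data, it called 0, with 941 at an unadjusted p under 0.05. Deviations of same-numbered libraries from their population mean had a correlation of 0.681 across genes, but 2 pairs without a label for a shared preparation do not establish a paired design. The block changed no other call on the members or lists between the populations. The members' median reporter difference moved to −0.44 with a pseudocount of 1, with *Actg2* at −1.09, *Myh11* at −0.54, *Lmod1* at −0.33 and *Des* at −0.34, and ran from −1.57 to −0.63 when a library was left out. Those ranges were −2.45 to −0.09 for *Acta2*, −2.13 to −0.22 for *Tagln*, −1.30 to −0.21 for *Cnn1*, −1.72 to 0.01 for *Myl9*, −0.65 to −0.04 for *Tpm2* and −0.61 to 0.95 for *Smtn*. With a library left out, the numbers are unbalanced between the populations, so the difference between the numbers enters these ranges. Between the library numbers, 3065 genes were called, against 1825 with a pseudocount of 1, 1256 with blanks filled by the lowest value, and 0 without the variance trend, where the smallest adjusted p was 0.0536. Of the members, 5 were called, against 1 (*Smtn*) without the population term or with blanks filled, 3 (*Acta2*, *Cnn1* and *Smtn*) with the pseudocount and 0 without the trend. Of the other contractile genes, 13 were called, against 8 without the population term or with blanks filled and 0 without the trend. The difference of *Myh11* between the numbers turned from −0.09 to 0.023 with the pseudocount. Leaving out a library gave differences between the numbers of −0.17 to 1.10 for *Actg2*, −0.42 to 0.24 for *Myh11* and 0.03 to 0.54 for the members' median, with no degrees of freedom left for a test. With population as a term, these values only repeat the differences within the population whose libraries both remain, so they add no further check. Why these results changed was not tested. With 4 libraries and an unknown depth, the differences of low genes, those of *Myh11*, *Lmod1* and *Des* included, carry an unknown counting error.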
